A study of Rattus norvegicus with 6 samples.

Results

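The RING finger and TRIM ubiquitin ligases of the rat kidney inner medulla were the 101 genes, of 14168 measured under a symbol of their own, whose single symbol in the array's annotation begins with Rnf or Trim followed by a number. The rule left out Rnf40, and 58 members carried an Rnf symbol and 43 a Trim symbol. Each gene was represented by its probe set with the highest mean, a choice that mattered for Rnf135 alone, the 1 member with more than 1 probe set. The members were chosen by name, not by their measured values. RNA of inner medullas from male Sprague-Dawley rats was hybridised to 6 whole-transcript arrays, with 3 groups of 2. In the withdrawal group the rats had received the vasopressin analogue dDAVP under the skin at 40 ng/h for 5 d from an osmotic minipump, and the pump was then removed under light enflurane anaesthesia 3 h before the tissue was taken. The dDAVP group had the same infusion, and the vehicle group was infused with saline instead (1 µl/h for 5 d). The removal is described for the withdrawal group only, so it and the end of the infusion cannot be told apart. All rats weighed 200–250 g, ate a fixed amount of standard diet and drank freely, and no age is given.

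Ubiquitin is joined to proteins by a chain of 3 enzymes, of which the last, the E3 ligase, chooses the substrate. RING ligases bind the ubiquitin-loaded E2 enzyme and the substrate together, and TRIM proteins carry a RING followed by B-box and coiled-coil domains, with family members that have lost the RING. In the collecting duct, vasopressin acting on the V2 receptor keeps the water channel aquaporin-2 in the apical membrane, and its internalisation after the hormone is removed is known to involve ubiquitination and sorting to endosomes and lysosomes. Which ligases of the Rnf and Trim families differ in mRNA level during V2 receptor stimulation and after its withdrawal is what these comparisons address.

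Values are log2 intensities, so a difference of 1 is a doubling, and the intensity of 1 gene's probe set says nothing of its level against another gene's. The array median of all genes was 8.0 and 7.98 for withdrawal, 7.83 and 7.90 for dDAVP, and 7.97 and 8.0 for vehicle. The median gene therefore differed by -0.11 between dDAVP and vehicle, by 0.14 between withdrawal and dDAVP and by 0.03 between withdrawal and vehicle (first group minus second), and differences are also given after cyclic loess, which removes this shift. Vehicle replicate 1 and dDAVP replicate 2 stood apart in a set of genes that includes the cell cycle. Aqp2, which defines collecting duct principal cells, was at 13.14 to 13.40 on all 6 arrays. The mean of 7 principal cell markers, Aqp2 among them, ran from 11.01 to 11.25. Of these 7, 2 had a higher mean in dDAVP than in vehicle (22.1% of all genes). In withdrawal against dDAVP 4 were higher and 3 lower (74.9% of all genes were higher). The means of 5 proximal tubule markers and of 3 podocyte markers, cells that the inner medulla should lack, ran from 6.96 to 7.31 and from 7.0 to 7.23. How far such values lie above background is unknown. The mean of 4 thick ascending limb markers was higher and ran from 9.46 (vehicle replicate 1) to 10.3 (dDAVP replicate 2). All 4 had a higher mean in dDAVP than in vehicle (22.1% of all genes), with a median difference of 0.25. In withdrawal against dDAVP 1 was higher and 3 lower (74.9% of all genes were higher), with a median of -0.11. The mean of 4 intercalated cell markers ran from 7.835 (vehicle replicate 1) to 8.875 (withdrawal replicate 1). Of these, 3 were higher and 1 lower in dDAVP than in vehicle, and 2 higher and 2 lower in withdrawal than in dDAVP. Whether the tissue taken differed between arrays was not tested. In whole tissue, fewer cells of a type and less RNA per cell cannot be told apart. Whether each array is a different rat is not stated, so a p-value reflects the array-to-array spread only, which may be technical, and 2 arrays a group limit the precision of every value.

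No member passed a Benjamini-Hochberg adjusted p of 0.05 in limma in any of the 3 comparisons, and none of the 14168 genes did (0% called in each). The smallest adjusted p among members was 0.549 (dDAVP against vehicle), 0.260 (withdrawal against dDAVP) and 0.995 (withdrawal against vehicle). At an unadjusted p under 0.05 there were 11, 22 and 1 members in this order, where 7.43%, 19% and 1.79% of all genes had such a p. Over the 3 groups, limma's F-test gave 12 members at an unadjusted p under 0.05 (all genes 8.64%), 6 after cyclic loess (3.58%) and 7 with each array's median subtracted (4.57%). All differences below are therefore descriptions of these 6 arrays. The median member spanned 0.37 log2 over the 6 arrays, as did the median gene (0.37). A span over 0.5 log2 was seen in 31 members (30.7%, all genes 25.6%) and one over 1 log2 in 1 member, Rnf19b (0.99%, all genes 3.40%). The median SD within groups was 0.121 for members and 0.115 for all genes.

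The higher member with the smallest p in dDAVP against vehicle was Rnf167, a membrane-anchored ligase of endosomes and lysosomes with a protease-associated domain. Its log2 intensities were 10.51 and 10.35 in withdrawal arrays, 10.90 and 10.96 in dDAVP arrays, and 10.52 and 10.60 in vehicle arrays. Both dDAVP arrays lay above all other arrays, and both withdrawal arrays lay below both vehicle arrays. Rnf167 differed by 0.37 ± 0.10 (SE) for dDAVP against vehicle, 1.29-fold, with an unadjusted p of 0.010 and an adjusted p of 0.549 (limma). For withdrawal against dDAVP it differed by -0.50 ± 0.10, 1.41-fold, with an unadjusted p of 0.002 and an adjusted p of 0.260. These comparisons share the dDAVP arrays, so the opposite signs are not separate results. With any 1 array left out the first difference stayed between 0.33 and 0.41 and the second between -0.58 and -0.42.

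The lower member with the smallest p was Rnf32, a protein with a pair of RING domains known mainly from testis in humans. Its log2 intensities were 7.56 and 7.54 in withdrawal arrays, 7.0 and 7.03 in dDAVP arrays, and 7.44 and 7.49 in vehicle arrays. The replicates of each group lay within 0.05 log2 of each other and both dDAVP arrays were the lowest of the 6. Rnf32 differed by -0.45 ± 0.09 for dDAVP against vehicle and by 0.54 ± 0.09 for withdrawal against dDAVP. After cyclic loess these became -0.29 and 0.34. It had the smallest unadjusted p of all members in both comparisons and in the F-test over the groups.

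The promoters of these 2 genes are shown because they had the smallest p in opposite directions. Each sequence is the RefSeq promoter of build GRCr8, 250 bases before to 50 after the gene's start, 5′ to 3′, and capitals mark TGACG or its complement on the other strand, the core of the cAMP response element bound by CREB. Rnf167 lies at chr10:55859004-55859303, plus strand, and Rnf32 at chr4:6883927-6884226, minus strand.
Rnf167: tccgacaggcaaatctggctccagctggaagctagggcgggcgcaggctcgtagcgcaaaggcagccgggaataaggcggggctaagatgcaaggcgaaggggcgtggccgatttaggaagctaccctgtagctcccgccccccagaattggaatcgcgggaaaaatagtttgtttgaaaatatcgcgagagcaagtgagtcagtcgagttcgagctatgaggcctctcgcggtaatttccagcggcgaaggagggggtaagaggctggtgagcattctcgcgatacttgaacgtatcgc
Rnf32: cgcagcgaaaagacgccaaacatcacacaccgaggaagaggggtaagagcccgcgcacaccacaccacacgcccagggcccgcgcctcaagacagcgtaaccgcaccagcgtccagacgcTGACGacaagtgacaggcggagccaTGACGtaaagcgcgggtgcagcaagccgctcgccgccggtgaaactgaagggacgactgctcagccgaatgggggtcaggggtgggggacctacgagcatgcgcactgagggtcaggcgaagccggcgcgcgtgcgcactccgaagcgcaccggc
The Rnf167 promoter held 0 such cores and the Rnf32 promoter 2, and 24.2% of 19005 protein-coding promoters held at least 1. This share was 26.3% over promoters of genes tested and 31% over member promoters. Both promoters were rich in CpG, with 25 CpG dinucleotides for Rnf167 and 35 for Rnf32. The median was 12 over all protein-coding promoters and 16 over those of genes tested. Promoters were found for 84 of the 101 members, and their median was 20 CpG.

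Between dDAVP and vehicle, an unadjusted p under 0.05 was reached by 2 members on the higher side and 9 on the lower, where 0.572% and 6.85% of all genes reached it. After cyclic loess the split was 4 higher and 5 lower (all genes 1.77% and 1.52%), and with array medians subtracted it was 6 and 5 (2.63% and 0.868%). The arrays of the groups did not overlap in 13 members on the higher side (4.8% of all genes) and 36 on the lower (40.6%). This split turned with the scaling, to 26 higher and 16 lower after loess (14.1% and 16% of all genes) and 31 and 18 with medians subtracted (16.4% and 12.4%). In all, 40 of 101 members had a higher mean in dDAVP (22.1% of all genes), 62 after loess (47.6%) and 59 with medians subtracted (50.7%). Beside Rnf167 the higher member was Rnf220, a nuclear ligase known in mice from Wnt and Sonic hedgehog signalling. Rnf220 was at 9.53 and 9.81 in withdrawal arrays, 9.93 and 9.85 in dDAVP arrays, and 9.49 and 9.64 in vehicle arrays. Both dDAVP arrays were the highest, and the withdrawal arrays overlapped with vehicle. The difference for dDAVP against vehicle was 0.33 ± 0.13 (0.36 after loess).

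Other members whose dDAVP arrays lay above both vehicle arrays had smaller or less steady differences. Rnf182, known in human neuronal cells to act on a membrane subunit of the vacuolar proton pump, was at 10.65 and 10.97 in withdrawal arrays, 11.23 and 11.13 in dDAVP arrays, and 10.89 and 10.87 in vehicle arrays. Rnf182 differed by -0.37 ± 0.13 for withdrawal against dDAVP and by 0.30 ± 0.13 for dDAVP against vehicle, the first of which was -0.21 without withdrawal replicate 1. Trim27, which regulates recycling from endosomes together with MAGE-L2 in human cells, was at 9.51 and 9.05 in dDAVP arrays, against 8.81 and 9.04 in vehicle arrays (0.35 ± 0.17). Its difference was 0.12 without dDAVP replicate 1, which leaves the dDAVP array at 9.05 against a higher vehicle array at 9.04, and 0.58 without dDAVP replicate 2. Trim28, the corepressor of KRAB zinc finger proteins, differed by 0.15 ± 0.09 and Trim8, a regulator of cytokine signalling, by 0.18 ± 0.11. Leaving out dDAVP replicate 1 gave 0.08 for Trim8, leaving out dDAVP replicate 2 gave 0.28, and leaving out vehicle replicate 1 gave 0.12.

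Among the members that were lower in dDAVP than in vehicle, Rnf225, Rnf6 and Trim71 were close to the vehicle level in the withdrawal arrays. Rnf6, a ligase known from its action on the androgen receptor in human cells, was at 7.93 and 8.03 in withdrawal arrays, 7.43 and 7.70 in dDAVP arrays, and 7.96 and 8.02 in vehicle arrays. It differed by -0.43 ± 0.12 for dDAVP against vehicle and by 0.42 ± 0.12 for withdrawal against dDAVP. Both dDAVP arrays lay below the other 4. Rnf225 was at 7.45 and 7.44 in withdrawal arrays, 7.15 and 6.99 in dDAVP arrays, and 7.56 and 7.44 in vehicle arrays. Trim71, the Lin-41 protein of stem cells and embryos, was at 7.43 on both withdrawal arrays, 7.08 and 7.19 in dDAVP arrays, and 7.52 and 7.36 in vehicle arrays. The dDAVP against vehicle differences of Rnf225 and Trim71, -0.43 ± 0.10 and -0.30 ± 0.10, were -0.27 and -0.14 after loess.

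Trim45 and Trim2 were lower than vehicle in both other groups. Trim45, a TRIM protein with a filamin-type repeat, was at 8.03 and 7.94 in withdrawal arrays, 7.69 and 7.96 in dDAVP arrays, and 8.35 and 8.21 in vehicle arrays. It differed by -0.45 ± 0.12 for dDAVP against vehicle and by -0.29 ± 0.12 for withdrawal against vehicle. Trim2, an NHL-repeat ligase that acts on neurofilament light chain in mouse neurons, was at 8.58 and 8.54 in withdrawal arrays, 8.25 and 8.57 in dDAVP arrays, and 8.82 on both vehicle arrays. No withdrawal or dDAVP array reached the vehicle level in either gene. These comparisons share the vehicle arrays. Trim2 differed by -0.41 ± 0.13 for dDAVP against vehicle, and by -0.24 without dDAVP replicate 1. Its withdrawal against vehicle difference was -0.26 ± 0.13.

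**Figure D1:**
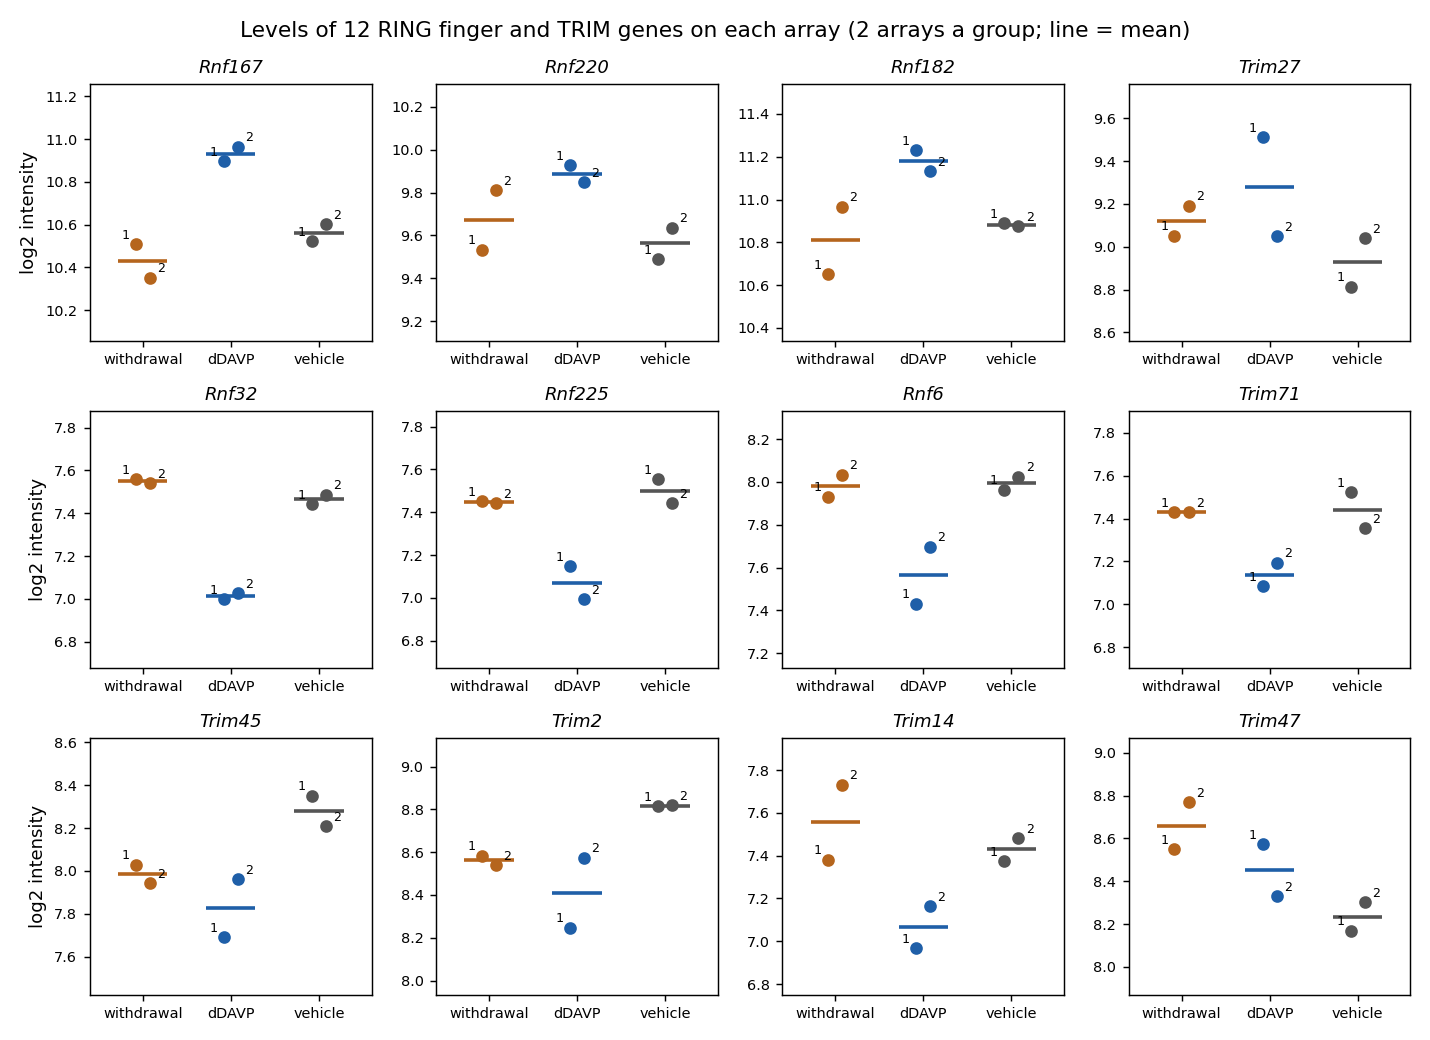
Log2 intensity (vertical axis, 1.2 log2 in every panel) of 12 members on the withdrawal, dDAVP and vehicle arrays; points are arrays numbered by replicate and lines are group means. The 2 dDAVP arrays lie above the other 4 in Rnf167, Rnf220 and Rnf182, and below them in Rnf32, Rnf225, Rnf6, Trim71 and Trim14.

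Between withdrawal and dDAVP, 20 members were higher and 2 were lower with an unadjusted p under 0.05, beside 17.3% and 1.64% of all genes. After cyclic loess 4 were higher and 3 lower (2.92% and 3.73%), and with array medians subtracted 4 and 9 (2.58% and 6.35%). Arrays did not overlap in 41 members on the higher side (49.6% of all genes) and 11 on the lower (8.06%). This split turned to 18 higher and 27 lower after loess (20.8% and 18.2%), and to 26 and 32 with medians subtracted (27.7% and 19.5%). A higher mean after withdrawal was seen in 60 members (74.9%), 49 after loess (51.3%) and 52 with medians subtracted (54.7%). The median member differed by 0.13 as deposited and by -0.01 after loess. Under loess the 4 higher members at an unadjusted p under 0.05 were Rnf32, Rnf6, Rnf113a2 and Rnf126, and the 3 lower were Rnf167, Rnf182 and Rnf123. Rnf113a2, Rnf126 and Rnf113a1 were chosen after their values were seen. Rnf126 is a ligase that acts with BAG6 on mislocalised proteins. It was at 8.55 and 8.70 in withdrawal arrays, against 8.22 and 8.39 in dDAVP arrays (0.32 ± 0.11). Rnf113a2 was at 9.995 and 10.11 in withdrawal arrays, against 9.76 and 9.66 in dDAVP arrays. Its close relative Rnf113a1 was at 8.07 and 8.06, against 7.39 and 7.82, and how far the probe sets of the 2 genes share signal is unknown.

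Of the 11 members whose withdrawal arrays lay below both dDAVP arrays, the 4 next by p after Rnf167 and Rnf182 had smaller differences. Rnf123, which as KPC1 acts on the cell cycle inhibitor p27, was at 7.78 and 7.68 in withdrawal arrays, against 7.99 and 7.85 in dDAVP arrays (-0.19 ± 0.10, and -0.33 after loess). Rnf114, an interferon-inducible ligase in human cells, differed by -0.17 ± 0.09, Rnf220 by -0.22 ± 0.13 and Rnf130, the Goliath relative with a protease-associated domain, by -0.14 ± 0.10. Rnf220 was at -0.08 without withdrawal replicate 1 and -0.36 without withdrawal replicate 2, and Rnf130 at -0.21 without dDAVP replicate 1 and -0.06 without dDAVP replicate 2. Rnf123 was at -0.12 without dDAVP replicate 1. The unadjusted p of these 4 lay between 0.103 and 0.193. On the higher side Trim10, of erythroid cells, differed by 0.35 ± 0.10 and Trim42 by 0.29 ± 0.09, and these were 0.14 and 0.08 after loess.

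Between withdrawal and vehicle, 1 member was higher and 0 lower with an unadjusted p under 0.05, beside 0.642% and 1.14% of all genes. After cyclic loess there was 1 on each side (0.649% and 1.5%), as with array medians subtracted (0.501% and 1.36%). Arrays did not overlap in 20 members on the higher side (17.6%) and 14 on the lower (13.1%), and 59 members had a higher mean after withdrawal (59.5%). After loess these were 17 (15%), 16 (17.1%) and 52 (50.2%), and with medians subtracted 17 (15.6%), 14 (13.5%) and 57 (58%). The higher member was Trim47, at 8.55 and 8.77 in withdrawal arrays, 8.57 and 8.33 in dDAVP arrays, and 8.17 and 8.30 in vehicle arrays. Every withdrawal and dDAVP array of Trim47 lay above both vehicle arrays. Its difference was 0.43 ± 0.13 for withdrawal against vehicle, 1.34-fold, with an unadjusted p of 0.017 and an adjusted p of 0.995 (limma). Of the next by p among members whose arrays did not overlap, Rnf24, a membrane ligase that binds TRPC channels, differed by 0.20 ± 0.09, Trim11 by 0.19 ± 0.10, Trim55 by 0.16 ± 0.10 and Trim42 by 0.13 ± 0.09. Rnf43, which removes Frizzled receptors of Wnt from the cell surface, was at 8.30 and 8.11 in withdrawal arrays, against 8.69 and 8.43 in vehicle arrays (-0.36 ± 0.17). Rnf123, Rnf216 (Triad3) and Rnf39 differed by -0.20 ± 0.10, -0.17 ± 0.10 and -0.23 ± 0.15. Without vehicle replicate 1 Rnf43 was at -0.23 and Trim55 at 0.26, Trim55 was at 0.06 without vehicle replicate 2, and Rnf39 was at -0.14 without withdrawal replicate 2.

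Both dDAVP arrays were the highest of the 6 in 7 members (6.93%), where 3.14% of all genes had this order. These were Rnf114, Rnf146, Rnf167, Rnf181, Rnf182, Rnf220 and Trim28. Both dDAVP arrays were the lowest in 31 members (30.7%), where 33.6% of all genes were. After cyclic loess the counts were 17 highest (16.8%, all genes 8.06%) and 10 lowest (9.9%, all genes 8.83%), and with array medians subtracted 20 (19.8%, all genes 10.6%) and 11 (10.9%, all genes 8.58%). Without vehicle replicate 1 and dDAVP replicate 2, the remaining dDAVP array was the highest of 4 in 21 members (20.8%, all genes 12.4%) and the lowest in 57 (56.4%, all genes 62%). No test was run on these shares.

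Dim and bright members differed in the sign of dDAVP against vehicle, while the median of all genes was below 0 in each of 4 brightness groups as deposited. When all genes were split into 4 equal groups by mean level, 13 members lay in the dimmest group and 29, 34 and 25 in the next 3. In the dimmest group all 13 members had lower means in dDAVP than in vehicle, with a median difference of -0.19 (all genes -0.16), and 8 of the 13 did after loess. In the brightest group 18 of 25 members had higher means in dDAVP, with a median of 0.07 (all genes -0.03). After loess this was 20 of 25, with a median of 0.10 (all genes 0.00). The share of all genes above 0 was not counted within each brightness group. Over all brightness groups it was 22.1% as deposited and 47.6% after loess. Trim members had a median difference of -0.14 for dDAVP against vehicle and Rnf members of -0.01, or 0.01 and 0.05 after loess. Of the 10 brightest members, Rnf7, the RING subunit of cullin-5 ligases, and Rnf186, a membrane ligase known from intestinal epithelium, had means within 0.02 of each other in dDAVP and vehicle. Rnf186 was at 11.62 and 11.001 in withdrawal arrays, so its replicates there were further apart than any 2 arrays of the other groups.

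**Figure D2:**
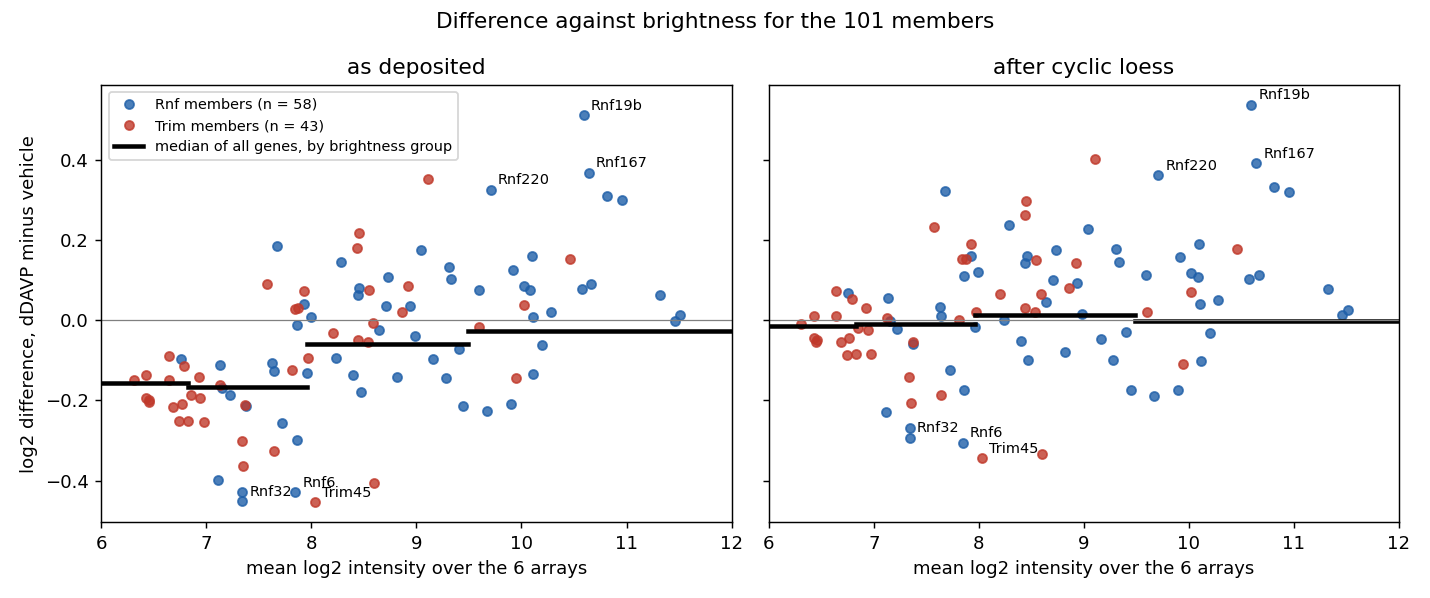
Log2 difference of dDAVP minus vehicle (vertical axis) against the mean log2 intensity over the 6 arrays (horizontal axis) for the 58 Rnf and 43 Trim members, as deposited and after cyclic loess; black lines are the medians of all genes in each of 4 brightness groups. The 13 members of the dimmest group all lie below 0 as deposited and lie on both sides of 0 after loess.

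Other bright members differed in how far their replicates agreed. Rnf5, a ligase of endoplasmic reticulum quality control, was at 10.97 and 10.49 in withdrawal arrays, 11.21 and 10.82 in dDAVP arrays, and 10.53 and 10.87 in vehicle arrays, so that every pair of groups overlapped. Rnf146, which binds poly-ADP-ribose on axin, spanned 10.61 to 10.77 over all 6 arrays, and Rnf181 10.47 to 10.68. The 5 dimmest members, Trim55, Trim50, Trim52, Trim9 and Trim69, had differences between -0.20 and -0.14 for dDAVP against vehicle and between -0.05 and 0.01 after loess.

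By role, the members of innate immune and interferon signalling were set beside a list of interferon response genes. Of 10 measured members of the role list, 1 had a higher mean in dDAVP than in vehicle (22.1% of all genes), and the median difference was -0.14, or -0.04 after loess. For withdrawal against dDAVP 7 of 10 were above 0 (74.9% of all genes), with a median of 0.19 as deposited and 0.05 after loess, where the median of 18 interferon response markers was 0.58 and 0.55, all 18 above 0. The mean level of those markers was 10.30 and 10.77 in withdrawal arrays, 9.89 and 9.996 in dDAVP arrays, and 10.21 and 10.37 in vehicle arrays. Their part in the levels of the ligases was not tested.

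Trim14, an interferon-induced adaptor of antiviral signalling that lacks a RING, had the smallest p of the role list. It was at 7.38 and 7.73 in withdrawal arrays, 6.97 and 7.16 in dDAVP arrays, and 7.38 and 7.48 in vehicle arrays. Trim14 differed by 0.49 ± 0.15 for withdrawal against dDAVP (0.30 after loess), and by 0.32 without withdrawal replicate 2, its highest array. Trim25, which activates the RNA sensor RIG-I, was at 9.78 and 10.40 in withdrawal arrays, 9.61 and 10.001 in dDAVP arrays, and 9.80 and 10.09 in vehicle arrays, with every pair of groups overlapping. Trim65, a ligase of the RNA sensor MDA5, differed by 0.28 ± 0.10 for withdrawal against dDAVP, or 0.09 after loess. In the same comparison Rnf125, Rnf135, Trim26 and Trim69 differed by 0.21, 0.06, 0.17 and 0.30, and Rnf31, the catalytic subunit of the linear ubiquitin chain complex, by -0.00. After loess these were 0.01, -0.10, 0.09, 0.10 and -0.06. The dimmer probe sets of Rnf135 differed by -0.07, 0.05 and -0.04 for withdrawal against dDAVP. For dDAVP against vehicle they differed by 0.01, 0.09 and 0.07, where the probe set used differed by -0.13. Trim21, the cytosolic antibody receptor, spanned 8.38 to 8.51 over all 6 arrays and differed by -0.06 ± 0.09 between withdrawal and dDAVP.

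Promoters were searched for the interferon-stimulated response element (GAAA and GAAA with any 2 bases between them, either strand) and for the full cAMP response element (TGACGTCA, its own complement, which contains the TGACG core). The first was found in 5 of 84 member promoters (5.95%, all protein-coding promoters 3.63%) and the second in 5 (5.95%, all 2.22%). Over promoters of genes tested the shares were 3.44% and 2.48%. The first were those of Trim21, Trim26, Trim40, Rnf20 and Rnf121, and the second those of Trim26, Rnf7, Rnf44, Rnf166 and Trim52. Shown are Trim21, with 2 overlapping matches of the first, Trim26, the 1 member with both, and Rnf7 and Rnf44 with the second. They are RefSeq promoters of GRCr8 as above, at chr1:166399322-166399621, minus strand (Trim21), chr20:1736262-1736561, minus strand (Trim26), chr8:105927356-105927655, minus strand (Rnf7) and chr17:9930125-9930424, plus strand (Rnf44). Capitals mark matches to TGACG and to the interferon element on either strand.
Trim21: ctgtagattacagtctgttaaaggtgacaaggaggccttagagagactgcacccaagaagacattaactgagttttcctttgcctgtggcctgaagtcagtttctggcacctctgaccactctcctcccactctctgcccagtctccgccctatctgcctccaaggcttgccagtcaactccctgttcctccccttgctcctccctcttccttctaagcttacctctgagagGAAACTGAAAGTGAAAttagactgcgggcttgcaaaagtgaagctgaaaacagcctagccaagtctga
Trim26: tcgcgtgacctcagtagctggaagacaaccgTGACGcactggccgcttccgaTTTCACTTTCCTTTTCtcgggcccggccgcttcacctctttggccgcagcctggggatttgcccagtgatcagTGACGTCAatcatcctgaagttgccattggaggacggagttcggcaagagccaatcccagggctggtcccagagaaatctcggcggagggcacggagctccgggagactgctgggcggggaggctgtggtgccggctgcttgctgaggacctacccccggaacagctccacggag
Rnf7: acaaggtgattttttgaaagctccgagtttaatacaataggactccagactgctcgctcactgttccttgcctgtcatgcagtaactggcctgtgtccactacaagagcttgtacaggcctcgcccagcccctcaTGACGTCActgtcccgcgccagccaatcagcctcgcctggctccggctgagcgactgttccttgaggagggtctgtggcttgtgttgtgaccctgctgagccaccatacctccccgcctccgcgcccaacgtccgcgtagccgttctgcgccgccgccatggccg
Rnf44: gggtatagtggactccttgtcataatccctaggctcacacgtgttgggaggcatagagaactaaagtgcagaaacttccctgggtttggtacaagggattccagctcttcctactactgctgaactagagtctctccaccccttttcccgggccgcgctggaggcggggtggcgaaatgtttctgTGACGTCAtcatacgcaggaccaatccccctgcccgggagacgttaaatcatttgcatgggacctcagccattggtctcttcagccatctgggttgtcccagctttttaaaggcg
The Trim21 matches begin at positions -18 and -12 from the gene's start, those of Trim26 at -198 and -192, and the full cAMP elements at -125 in Trim26, -115 in Rnf7 and -65 in Rnf44. Trim26 differed by -0.06 ± 0.11 for dDAVP against vehicle, Rnf7 by -0.00 ± 0.11, and Rnf44 by 0.19 ± 0.16. Rnf166 and Trim52, which also held the full cAMP element, differed by 0.04 ± 0.09 and -0.14 ± 0.09. After loess the 5 were at 0.02, 0.01, 0.32, 0.10 and 0.01 in this order. No promoter of the 7 members highest in dDAVP held either full element, but at shares of 3.44% and 2.48% so few promoters say little. Of 24 promoters of members lowest in dDAVP, 1 held the interferon element (4.17%) and 1 the full cAMP element (4.17%). A match is a description of these letters only.

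Membrane ligases with a protease-associated domain numbered 5, with Rnf167 lowest and Rnf149 highest in their difference between withdrawal and dDAVP. Rnf149 was at 9.51 and 9.86 in withdrawal arrays, 9.35 and 9.10 in dDAVP arrays, and 9.06 and 9.53 in vehicle arrays (0.46 ± 0.20 for withdrawal against dDAVP). Vehicle replicate 1 and dDAVP replicate 2, the arrays that stood apart, were its lowest, by a gap of 0.25 to the next array. The other 3, Rnf43, Rnf128 and Rnf130, differed by -0.22, -0.03 and -0.14 in the same comparison. All 5 measured members of growth factor, Wnt and BMP signalling had lower means in withdrawal than in dDAVP, with a median of -0.10, or -0.20 after loess, beside a median of all genes of 0.14 and 0.00 (74.9% of all genes were above 0 as deposited). These were Rnf41, Rnf43, Rnf111, Rnf146 and Rnf220, and none had an unadjusted p under 0.05 in that comparison.

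The 8 RING-between-RING ligases, which pass ubiquitin through a cysteine of their own, had a median difference of -0.05 for dDAVP against vehicle and of -0.01 for withdrawal against dDAVP, and none had an unadjusted p under 0.05. The smallest p was that of Rnf144a for dDAVP against vehicle (-0.21 ± 0.09, and -0.06 after loess). The 9 ligases of the endoplasmic reticulum had medians of 0.03 and 0.02, with Rnf121 at -0.23 ± 0.14 for dDAVP against vehicle, and the 9 of chromatin and DNA repair had medians of 0.02 and -0.05. Of the chromatin list, Trim66, a member without a RING, differed by -0.19 ± 0.09 for dDAVP against vehicle (-0.02 after loess). Trim24, a nuclear receptor cofactor of the same list, differed by 0.27 ± 0.16 for withdrawal against dDAVP. Of the 3 ribosome-linked ligases, Rnf14 and Rnf25 differed by 0.13 ± 0.19 and 0.07 ± 0.15 for dDAVP against vehicle, and Rnf151 of germ cells by 0.04 ± 0.22.

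The 7 microtubule-associated TRIM genes were all lower in mean in dDAVP than in vehicle and all higher in withdrawal than in dDAVP, with medians of -0.19 and 0.23, which were -0.02 and 0.03 after loess. Of all genes 22.1% were higher in the first comparison and 74.9% in the second, with medians of -0.11 and 0.14. Trim36 and Trim55 differed by 0.39 ± 0.13 and 0.31 ± 0.10 for withdrawal against dDAVP, and by 0.17 and 0.12 after loess. The muscle ligases Trim54, Trim55, Trim63 and Trim72 had a median of 0.17 in that comparison, or -0.00 after loess, and 6 skeletal muscle markers had 0.22 and 0.04. Of these ligases all but Trim72 also belong to the microtubule-associated list, so the medians of these lists are not separate results. Of the NHL-repeat genes, Trim3 and Trim32 had differences of at most 0.08 in size in every comparison as deposited. Of the members without a RING, Trim16 differed by -0.33 ± 0.18 for dDAVP against vehicle with overlapping arrays, and Trim44 by -0.13 ± 0.12.

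**Figure D3:**
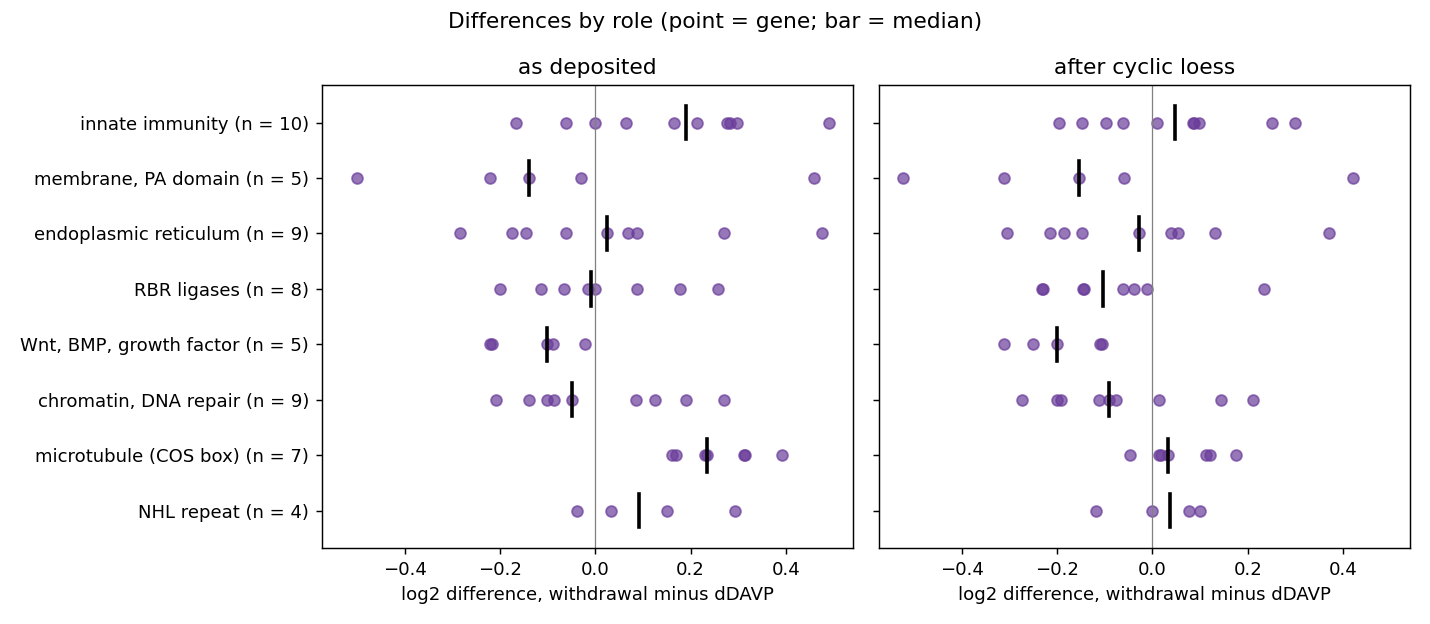
Log2 difference of withdrawal minus dDAVP (horizontal axis) for the measured members of 8 role lists, as deposited and after cyclic loess; each point is a gene and each bar the median of its list. The microtubule-associated list has a median of 0.23 as deposited and 0.03 after loess, and the Wnt, BMP and growth factor list lies below 0 in both.

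In 3 members vehicle replicate 1 and dDAVP replicate 2 stood apart from the other 4 arrays by more than 0.3 log2. They were lower in 2 members (2% of all genes) and higher in 1 (1.43%). Rnf19b, a RING-between-RING ligase known from natural killer cells and macrophages, was at 10.91 and 10.96 in withdrawal arrays, 11.40 and 9.96 in dDAVP arrays, and 9.62 and 10.71 in vehicle arrays. It had the largest difference of any member, 0.77 ± 0.52 for withdrawal against vehicle (unadjusted p 0.187), and this was 0.23 without vehicle replicate 1 and 1.31 without vehicle replicate 2. Trim59, known to be high in dividing cells, was at 8.61 and 8.41 in withdrawal arrays, 8.29 and 7.78 in dDAVP arrays, and 7.70 and 8.43 in vehicle arrays. The mean of 10 cell cycle markers followed the same order between replicates, at 8.96 and 8.81 in withdrawal arrays, 8.44 and 7.71 in dDAVP arrays, and 7.86 and 8.85 in vehicle arrays. Trim29, a member without a RING known from basal epithelia, showed the opposite, at 7.38 and 7.23 in withdrawal arrays, 7.35 and 8.16 in dDAVP arrays, and 8.05 and 7.28 in vehicle arrays. The part of the cell cycle genes in these levels was not tested.

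**Figure D4:**
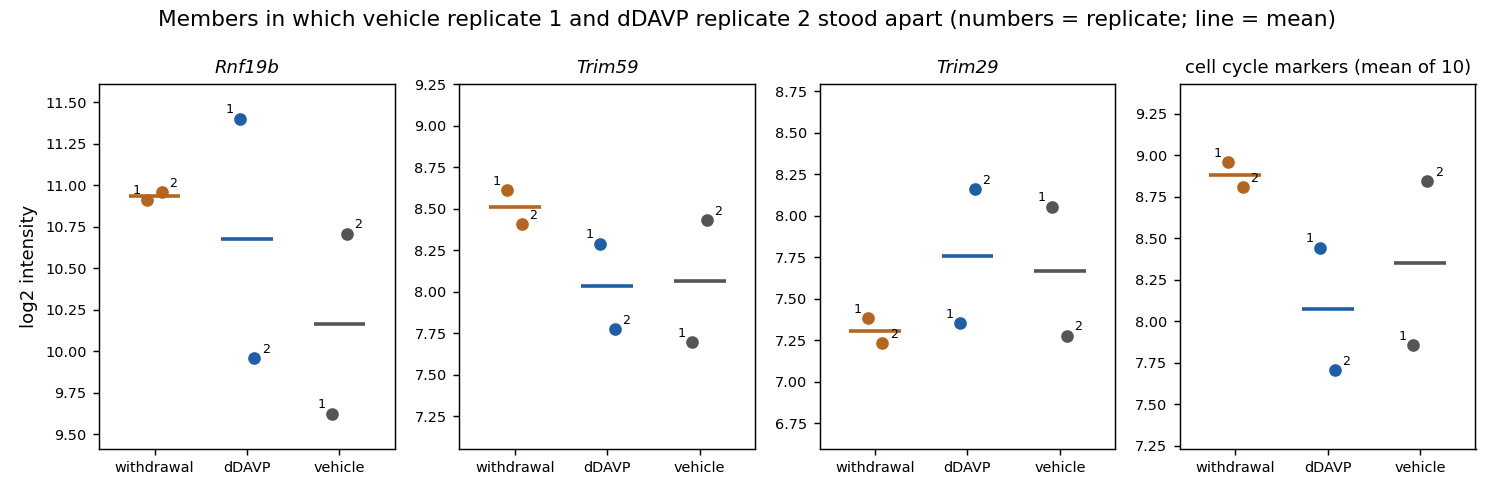
Log2 intensity (vertical axis) of Rnf19b, Trim59 and Trim29 and the mean of 10 cell cycle markers on the withdrawal, dDAVP and vehicle arrays; points are arrays numbered by replicate and lines are group means. Vehicle replicate 1 and dDAVP replicate 2 are the 2 lowest arrays in Rnf19b, Trim59 and the markers, and the 2 highest in Trim29.

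None of the enzymes upstream of the ligases, and none of the RING ligases under other names, had an adjusted p under 0.05. Of 27 measured E2 enzymes 4 were higher and 0 lower for withdrawal against dDAVP at an unadjusted p under 0.05 (17.3% and 1.64% of all genes), and after loess 1 and 0 (2.92% and 3.73%). Among them Ube2n, which builds chains that serve in immune signalling, differed by 0.49 ± 0.17 and Ube2l6, the E2 of the interferon-induced modifier Isg15, by 0.37 ± 0.13. The E1 enzymes Uba6 and Uba7, the second of which activates Isg15, differed by -0.33 ± 0.18 and -0.44 ± 0.20 for dDAVP against vehicle. Of 73 RING ligases under other names 2 were higher and 8 lower for dDAVP against vehicle, and 8 higher and 2 lower for withdrawal against dDAVP, or 6 and 0, and 1 and 5, after loess. The shares of all genes were 0.572% and 6.85%, and 17.3% and 1.64%, as deposited, and 1.77% and 1.52%, and 2.92% and 3.73%, after loess. Pja2, which degrades regulatory subunits of protein kinase A in human cells, was at 10.69 and 10.65 in withdrawal arrays, 10.88 and 10.90 in dDAVP arrays, and 11.16 and 10.90 in vehicle arrays (-0.36 ± 0.11 for withdrawal against vehicle, adjusted p 0.995, limma).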

How the data were processed

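Total RNA of the kidney inner medulla was measured on 6 arrays, 1 per sample, in 3 groups of 2 taken from the sample titles. Per the labels' protocols, total RNA from Trizol extraction was converted to biotin-labelled sense cDNA. The submitters' processing notes name RMA, and the authors deposited a table with 1 intensity per probe set and array. The RMA version and any build are not stated in the labels. The deposited intensities are linear (30.2 to 10778.7), so log2 values were taken before any test. RMA normalizes between arrays, which can reduce a change common to most genes. Detection calls and scan dates were not used here.

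Of 28524 probe sets 14947 carried 1 symbol, 318 several and 13259 were not listed in the platform annotation. For each of 14168 genes the probe set with the highest mean was used. One model with a mean per group was fitted to all genes with limma 3.58.1 in R 4.3.3 (lmFit, eBayes, 3 residual and 3.21 prior degrees of freedom), with two-sided tests and Benjamini-Hochberg adjustment over all genes. The 3 comparisons and an F-test made 4 families. Differences are ± the moderated standard error. On simulated arrays with 200 of 14168 genes changed in dDAVP against vehicle, the fit recovered 67% at 1 log2 and 93% at 2 log2. It also called 9 unchanged genes. The largest member difference in any comparison was 0.77, so recovery at the sizes seen in members was not measured. The simulated noise was independent between genes and arrays, without the shift of array medians or the 2 arrays that stood apart.

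The members, the role lists and the naming rule were chosen with earlier results of these data known. Named with values were the 6 higher and 6 lower members with the smallest unadjusted p and no overlap of arrays in each comparison, the 10 brightest members, the role lists, and 2 genes of each pathway list, some of which are not reported here. Other genes of a list were matched through RefSeq synonyms (GRCr8). Promoters of protein-coding genes came from RefSeq GRCr8. Alternatives were cyclic loess, array medians subtracted, the dimmest of 4 brightness groups left out (88 members kept), the mean of probe sets, a replicate block, each array left out, and vehicle replicate 1 and dDAVP replicate 2 left out together.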

Additional observations from a re-analysis of the deposited data

How the results depend on the processing

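No member passed an adjusted p of 0.05 under any of the 12 alternatives in any comparison (limma). The 36 differences of members named for their p kept their sign under all alternatives run, but most alternatives could not change it. These members were named for arrays without overlap, so leaving arrays out keeps the sign. A replicate block, the mean of probe sets and leaving out the dimmest group do not alter these differences. Only cyclic loess and the subtraction of array medians could have changed a sign. Counts at an unadjusted p under 0.05 and medians over the members moved. For withdrawal against dDAVP the count of 22 was 7 after cyclic loess, 13 with array medians subtracted and 12 without the dimmest of 4 brightness groups, where fewer genes were tested, and 24 without the pair of arrays that stood apart. With 1 array left out it ran from 8 (without withdrawal replicate 2) to 22, with 13 without withdrawal replicate 1 and 14 without dDAVP replicate 1. For dDAVP against vehicle the count of 11 ran from 3 (without dDAVP replicate 1) to 13, with 7 without vehicle replicate 1. For withdrawal against vehicle the 1 member became 2 after loess and 2 with medians subtracted, and 0 to 5 with 1 array left out. In the F-test 12 became 6 after loess, 7 with medians subtracted, 6 without the dimmest group, and 4 (without dDAVP replicate 1) to 12 with 1 array left out. The median member difference of dDAVP against vehicle, -0.07, was 0.0262 after loess, 0.0468 with medians subtracted, -0.0209 without the dimmest group and -0.0987 to -0.062 with 1 array left out. That of withdrawal against dDAVP, 0.13, was -0.0111, 0.0028, 0.0488 and 0.0686 to 0.1409 in the same order. In alternatives added after seeing the data, the 31 members with both dDAVP arrays lowest became 10 after loess and 11 with medians subtracted, and the 7 highest became 17 and 20. Without the pair of arrays that stood apart these counts were 57 and 21 for the single dDAVP array left. The cause of each move was not tested. An arm left with 1 array is assumed to vary like the other groups.

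Arrays of the groups share replicate numbers, but the labels give them no shared animal or batch. Deviations of the arrays numbered 1 correlated over all genes by -0.62 between dDAVP and vehicle, -0.11 between withdrawal and dDAVP and 0 between withdrawal and vehicle. With the replicate number as a block the F-test count was 5, and the counts of the 3 comparisons were 8, 16 and 1, in the order of the report. Signal over background is unknown, so a dim member's small difference cannot be separated from a lack of signal.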
